A study of Homo sapiens with 4 samples.

Results

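MATR3, DHX15, THOC2 and NMD3 encode proteins that bind, splice or export RNA. They were chosen by their measured log ratios, which lay more than 1.5-fold below 0 on every array of the series. Their low values are therefore described without a test. The set holds 4 genes and 5 probes, out of 4604 named genes and 15246 probes on the array. A value on all 4 arrays was available for 3589 genes, all 4 of these included, and for 4 of the 5 probes. The exception is a second MATR3 probe with a value on 3 arrays, which read 0.02 to 0.87.

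OCI-Ly3, an established line from a human large B-cell lymphoma, was measured on 4 two-colour arrays. A doxycycline-inducible hairpin in these cells targets CHUK, which encodes the kinase IKKa. On every array cells given doxycycline at 20 ng/ml (Cy5) were set against cells without it (Cy3). Doxycycline was given for 2 days on 1 array and for 3 days on another, both without inhibitor. The remaining 2 arrays repeat these days with MLN120b, which inhibits IKKb, at 12.5 uM in the Cy5 and the Cy3 cells alike: 3 h of it at 2 days and 24 h at 3 days. The set thus rests on 1 cell line and, as far as the series' design text says, 1 hairpin, whose sequence the labels do not state. No array of doxycycline in cells without the hairpin, and none with the dyes swapped, was analysed here, so an effect of doxycycline, of the dye or of other transcripts met by the hairpin cannot be told apart from the loss of IKKa. The values are log ratios, read as log2, and doxycycline over no doxycycline is the likely direction. It is the usual Cy5 over Cy3 order and puts both CHUK probes below 0 on all arrays. Turned, every value below would change sign. Ratios within 1 line show no level, so the labelled cell type could not be checked. With inhibitor the mean lay below 0 for 4 of 6 B cell markers measured (median -0.09), 0 of 6 T cell markers (median 0.20) and 2 of 3 myeloid markers (median -0.03). By limma (adjusted p under 0.05, mean against 0) none of these markers was called, against 4.57% of all genes, so lists this small would hold few calls in any case; their part in the values below was not tested.

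The 4 proteins act at different steps in the life of an RNA. MATR3 (matrin 3) is an RNA- and DNA-binding protein of the inner nuclear matrix that takes part in alternative splicing and in keeping RNAs in the nucleus. DHX15 is a DEAH-box helicase that takes spent spliceosomes apart, with G-patch proteins as its activators. THOC2 is the scaffold subunit of the THO complex, which couples transcription to mRNA export within TREX. NMD3 is the adaptor through which the large ribosomal subunit is exported by the receptor XPO1, and despite its name it is not a factor of nonsense-mediated decay.

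Because these genes were low together in a study of NF-kB signalling, the 250 bases before the starts that RefSeq (GRCh38.p14) lists for them were searched, and 3 of these windows are shown. Capitals mark each match, on either strand, to a loose form of the kB site that NF-kB binds: GGG, any 5 bases, then CC. Overlapping matches run together. The windows are chr5:139273851-139274100 (plus strand) for the first of the 2 MATR3 starts listed, chr4:24584555-24584804 (minus) for DHX15, chrX:123733053-123733302 (minus) for THOC2 and chr3:161221061-161221310 (plus) for NMD3. Of the NMD3 window 209 bases lie inside the span of the annotated gene, as does the whole window of the second MATR3 start, and these windows are not printed.
MATR3: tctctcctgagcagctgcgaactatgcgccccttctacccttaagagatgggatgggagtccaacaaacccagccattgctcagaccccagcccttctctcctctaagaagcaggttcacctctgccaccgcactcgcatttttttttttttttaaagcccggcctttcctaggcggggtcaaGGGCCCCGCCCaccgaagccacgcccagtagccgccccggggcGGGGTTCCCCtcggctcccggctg
DHX15: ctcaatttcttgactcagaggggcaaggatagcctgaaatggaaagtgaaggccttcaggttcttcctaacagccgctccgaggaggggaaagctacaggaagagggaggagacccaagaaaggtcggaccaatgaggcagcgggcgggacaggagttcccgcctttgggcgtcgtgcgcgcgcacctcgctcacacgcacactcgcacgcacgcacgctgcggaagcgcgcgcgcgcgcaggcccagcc
THOC2: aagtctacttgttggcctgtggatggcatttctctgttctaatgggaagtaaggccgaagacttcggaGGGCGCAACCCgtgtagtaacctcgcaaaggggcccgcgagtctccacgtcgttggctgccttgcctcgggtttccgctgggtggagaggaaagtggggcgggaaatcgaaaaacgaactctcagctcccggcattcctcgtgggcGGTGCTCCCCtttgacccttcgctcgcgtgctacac
The pattern was in 4 of 5 windows, the second MATR3 start included, and in 3 of the 4 genes, DHX15 being the exception. Among 35116 promoter windows of this length 54.4% hold it, so its presence does not set these genes apart. In MATR3 it includes GGGGTTCCCC, which matches on both strands and whose first base lies 24 bases before the start. The GC box (GGGCGG, either strand) was in 4 of 5 windows, against 42.6% of all windows. In MATR3 1 GC box overlaps a match to the kB pattern and another overlaps GGGGTTCCCC, and in THOC2 and NMD3 1 of 2 GC boxes does so. CCAAT (either strand) was in 1 window, that of DHX15, against 32%. The E-box CACGTG (in 6.34% of windows) and the ETS core CCGGAA (either strand, 14.5%) were in none. The GC content was 58 to 66%, and the median over all windows was 58%.

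MATR3 had the lowest mean of all 3589 genes in both groups, on the probe that was measured throughout. This probe read -1.25 at 2 days and -1.80 at 3 days of doxycycline without inhibitor. With inhibitor it read -1.79 (2 days, 3 h) and -2.32 (3 days, 24 h). These average to -1.52 ± 0.39 (SD, n = 2) for doxycycline alone, which is 2.88-fold lower, and to -2.06 ± 0.37 (SD, n = 2) with inhibitor, which is 4.16-fold lower. In bulk RNA a smaller share of cells with the transcript and less of it per cell cannot be told apart. By rank it was the 4th and 3rd lowest gene on the arrays without inhibitor and the 1st and 2nd lowest on those with it. Its groups overlapped narrowly, since the 3-day value without inhibitor lay just under the 2-day value with it.

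The second MATR3 probe did not show this. It read 0.02 at 2 days and 0.03 at 3 days without inhibitor, had no value on the array of 3 h inhibitor and read 0.87 on that of 24 h, on the other side of 0. The gap between the 2 probes was 1.27, 1.82 and 3.19 log2 units on those 3 arrays. On the 24 h array 2056 genes had 2 or more probes; the median gap within a gene was 0.41, and 4 genes (0.195%) had a larger gap than MATR3. At 2 and 3 days without inhibitor 13 of 2534 and 12 of 2232 such genes had a larger one. For comparison, the 2 probes of CHUK differed by 0.31 to 0.71. Averaging the MATR3 probes wherever they have a value would give -0.75 without and -1.26 with inhibitor. The latter takes the 3 h array from the first probe alone (-1.79), so the 2 means rest on unlike sets of probes. The platform annotation assigns both probes to the same gene and the same RefSeq transcript and gives no probe sequence. Which of them reports MATR3 mRNA was not tested. RefSeq names 2 pseudogenes after MATR3 and 2 after NMD3, and none after DHX15 or THOC2; cross-hybridization was not tested for any of the 4.

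**Figure D1:**
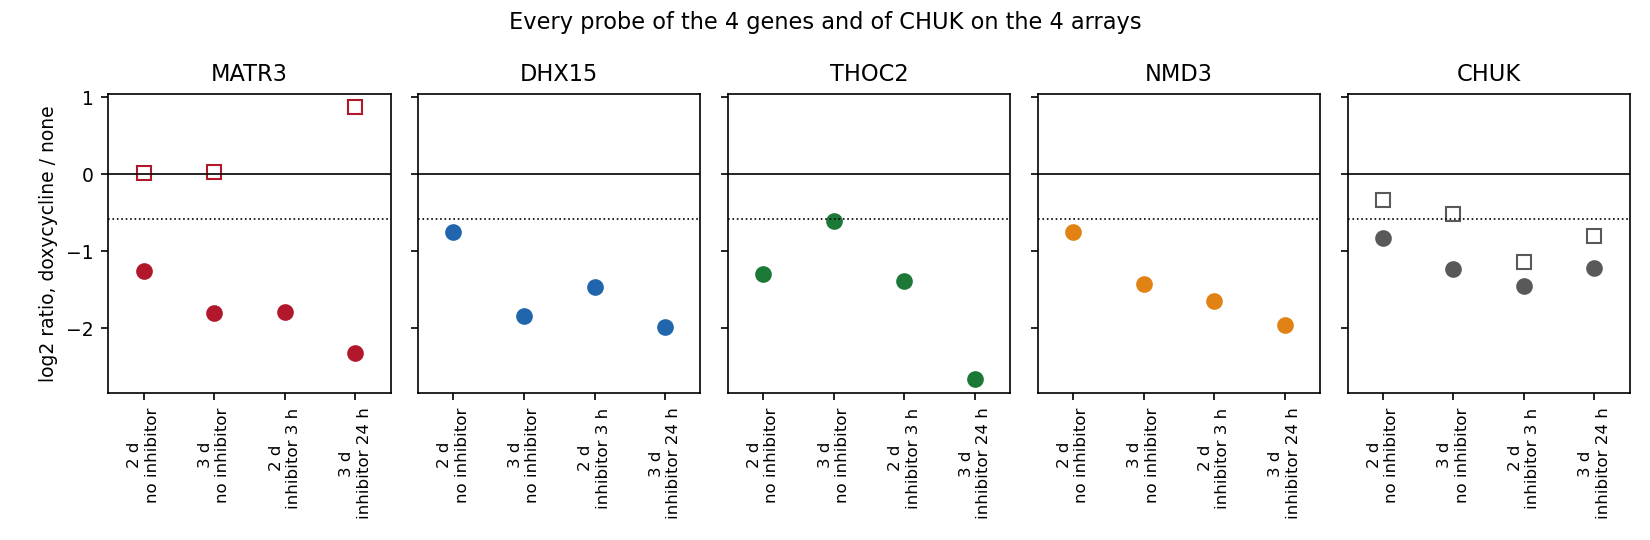
Log2 ratio (doxycycline over none) of each probe of the 4 genes and of CHUK, the hairpin's target, on the 4 arrays; the dotted line is the 1.5-fold limit. Filled circles are probes measured on all 4 arrays. Open squares are the second MATR3 probe (0.02, 0.03 and 0.87, with 1 value missing) and the second CHUK probe, which was also measured on all 4 arrays.

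**Figure D2:**
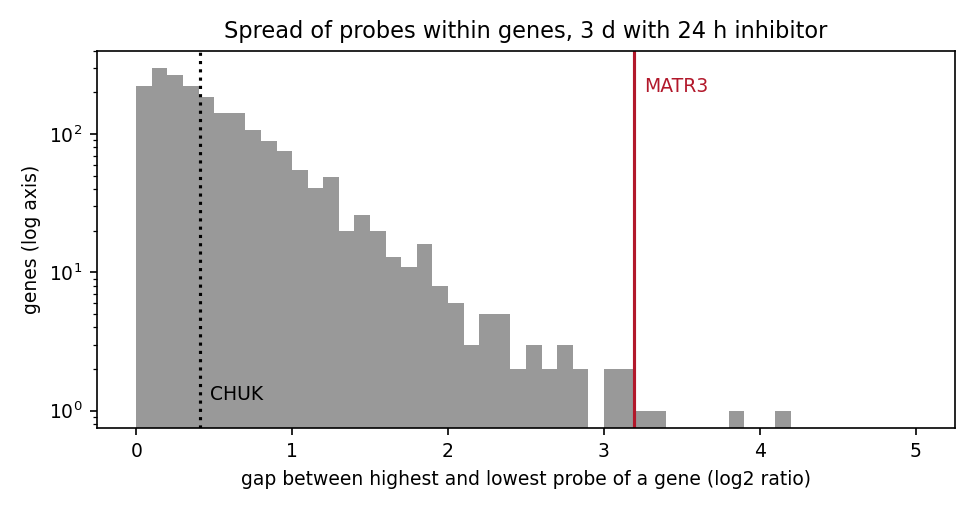
Histogram over 2056 genes of the gap, in log2 ratio, between the highest and lowest probe of a gene on the array of 3 days doxycycline with 24 h inhibitor; the count axis is logarithmic. MATR3 lies at 3.19 (solid line), with 4 genes beyond it, and CHUK at 0.41 (dotted line).

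DHX15, the helicase of spliceosome disassembly, rested on 1 probe and was lower at 3 days than at 2 days with and without inhibitor. Without inhibitor it read -0.75 at 2 days and -1.84 at 3 days. With inhibitor it read -1.47 at 2 days and -1.99 at 3 days. The means were -1.29 ± 0.78 (SD, n = 2) without and -1.73 ± 0.37 with inhibitor, 2.45-fold and 3.31-fold lower. The 3-day value without inhibitor lay below the 2-day value with it, so the groups overlapped. DHX15 was the 21st lowest gene at 2 days without inhibitor, the 2nd lowest at 3 days, and the 7th and 8th lowest with inhibitor.

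THOC2, the THO scaffold, also rested on 1 probe and had the most uneven values of the set. Without inhibitor it read -1.29 at 2 days, the 2nd lowest gene of that array, and -0.61 at 3 days, the 167th lowest. With inhibitor it read -1.39 (2 days, 3 h) and -2.67 (3 days, 24 h), the lowest of all genes on the last array and 6.34-fold below 0. The means were -0.95 ± 0.49 (SD, n = 2) without and -2.03 ± 0.90 with inhibitor. Its values ranged over 2.06 log2 units, against 1.07 to 1.24 for the other 3 genes.

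NMD3, the export adaptor of the large ribosomal subunit, rested on 1 probe. The arrays of doxycycline alone gave -0.75 (2 days) and -1.43 (3 days). Those with inhibitor gave -1.65 (2 days) and -1.96 (3 days). The means were -1.09 ± 0.48 (SD, n = 2) and -1.80 ± 0.22, 2.13-fold and 3.49-fold lower. Both values with inhibitor lay below both without. It was the 20th and 8th lowest gene without inhibitor and the 2nd and 9th lowest with it.

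**Figure D3:**
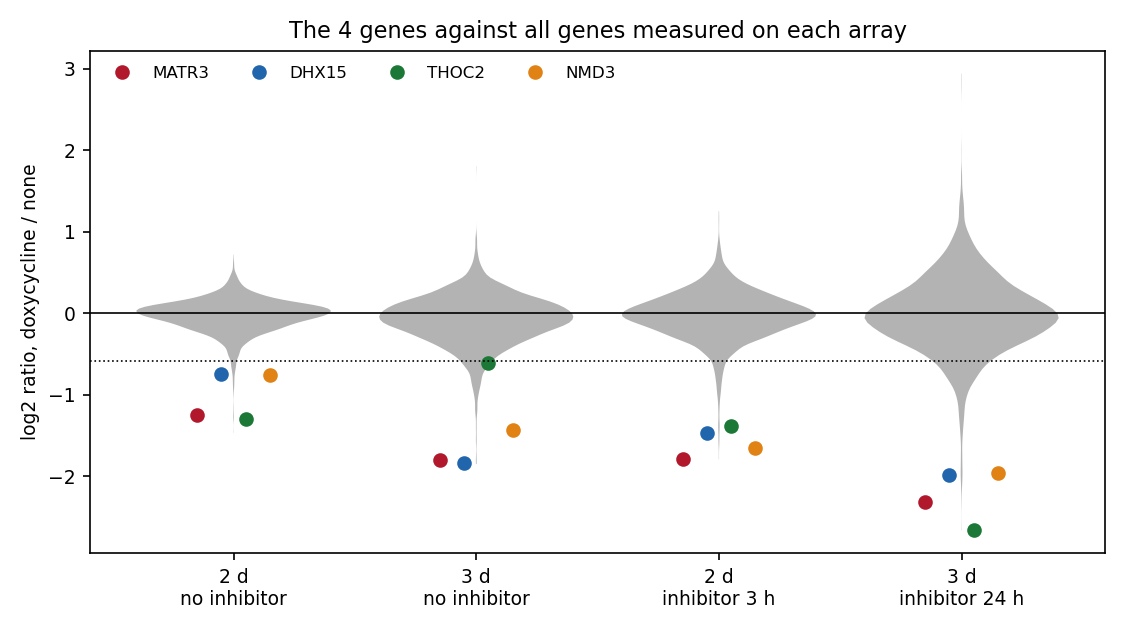
Log2 ratios of 3589 genes on each array (grey, width shows density) with the 4 genes as points; the dotted line is the 1.5-fold limit. The points lie in the lower tail of each array except THOC2 at 3 days without inhibitor, which is just under the limit at -0.61.

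The 1.5-fold limit lies 0.585 log2 units from 0. It was passed below 0 on all 4 arrays by 24 of 3589 genes (0.669%) and above 0 by none (0%). On both arrays without inhibitor 33 genes (0.919%) lay below it and none above (0%); on both with inhibitor 86 (2.4%) lay below it and 30 (0.836%) above. Ordered by the highest of the 4 values, MATR3 came 1st (-1.25), NMD3 9th (-0.75), DHX15 10th (-0.75) and THOC2 21st (-0.61). Just inside the limit were WSB1 (-0.59) and CHUK itself (-0.59), and just outside were WDR44 and POGK (-0.54 each). PNN, a splicing factor of exon junctions, came next at -0.54. Past 2-fold on all 4 arrays there were 2 genes, MATR3 and CD2AP, whose product links membrane receptors to actin. Of the 24 genes 20 rested on 1 complete probe, against 52% of all genes, and of the 4 with several, CD2AP and HSP90B1 had every complete probe past the limit. Besides MATR3, TAB2, an adaptor of the kinase upstream of IKK, had incomplete probes above 0: 3 probes with 4 values between 0.01 and 0.54. The single incomplete probe of WSB1 was below 0 (-0.75, -0.56 and -1.52), as was that of OXSR1 (-0.27). Of the 24 genes 5 were on the RNA lists described below, the 4 genes and SDAD1. Leaving out the array of 2 days doxycycline without inhibitor, the narrowest, would let 52 genes past the limit.

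Whether the values moved with IKKb inhibition was asked of the difference between the groups, which the choice of genes did not use directly, although it set a ceiling on every array. THOC2 was lower with inhibitor by -1.08 (SE 0.42; 95% interval -2.06 to -0.09), the lowest difference of all 3589 genes. NMD3 differed by -0.71 (SE 0.25; -1.31 to -0.12), MATR3 by -0.53 (SE 0.25; -1.13 to 0.07) and DHX15 by -0.43 (SE 0.36; -1.28 to 0.42). No difference passed: the limma adjusted p was 0.989 for THOC2, NMD3 and MATR3 and 0.999 for DHX15. Over all genes limma called 0 of 3589 (0%), with 173 (4.82%) at an unadjusted p under 0.05, of which 58 (1.62%) were lower with inhibitor. THOC2 (0.0363) and NMD3 (0.0253) had such an unadjusted limma p. These intervals are not adjusted for the number of genes.

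By day, the THOC2 difference was -0.10 at 2 days and -2.06 at 3 days, so it came almost wholly from the pair of 3-day arrays. NMD3 had -0.90 and -0.53, DHX15 -0.72 and -0.15, and MATR3 -0.54 and -0.52, the most even of the set. All 4 genes were lower with inhibitor on both days, as were 25.6% of all genes. Of the 24 genes past the fold limit on every array, all but ALCAM, PARPBP and BTN2A2 were lower on both days too. In 2 of the 4 genes, THOC2 and NMD3, both values with inhibitor lay below both without, as in 11.2% of all genes. Among the 24 genes the same held for CD2AP, SEL1L, USP25, UBA6, OXSR1, CLOCK, ABCA5, COPS3, TAB2, WSB1 and CHUK. It did not hold for the rest, MATR3 and DHX15 included. The 24 genes were low throughout and the inhibitor arrays were wider (below), so shares over all genes are no like comparison. Without the 3 h inhibitor array, where the remaining 24 h array is assumed to vary like the others, the differences were -1.71 for THOC2 (limma adjusted p = 1.58e-09), -0.87 for NMD3 (0.0145), -0.80 for MATR3 (0.0323) and -0.69 for DHX15 (0.0906). Under the other alternatives tried the adjusted p of the 4 genes lay between 0.338 and 1. Without the 24 h array the THOC2 difference was -0.44, and without the 2-day array of doxycycline alone the DHX15 difference turned to 0.12.

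The inhibitor arrays were wider over all probes than the arrays of doxycycline alone of the same day. The median absolute deviation (MAD) of log ratios over all probes was 0.13 (2 days) and 0.22 (3 days) on the arrays of doxycycline alone. On the inhibitor arrays it was 0.19 and 0.29. That is 1.51 times wider at 2 days and 1.33 times at 3 days. In units of each array's MAD, MATR3 stood at -9.78 and -8.34 without inhibitor and at -9.25 and -8.12 with it, so it was no lower with inhibitor. DHX15 went from -5.83 to -7.55 at 2 days but from -8.55 to -6.95 at 3 days. THOC2 went from -10.11 to -7.17 at 2 days and from -2.80 to -9.32 at 3 days. NMD3 was lower with inhibitor on both days, from -5.89 to -8.51 and from -6.63 to -6.85. After scaling to equal spread the difference was -0.37 for THOC2, -0.29 for NMD3, -0.01 for DHX15 and 0.08 for MATR3, the last on the other side of 0 (limma adjusted p = 0.998 for each). The part of array width in the differences was not tested beyond this scaling.

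**Figure D4:**
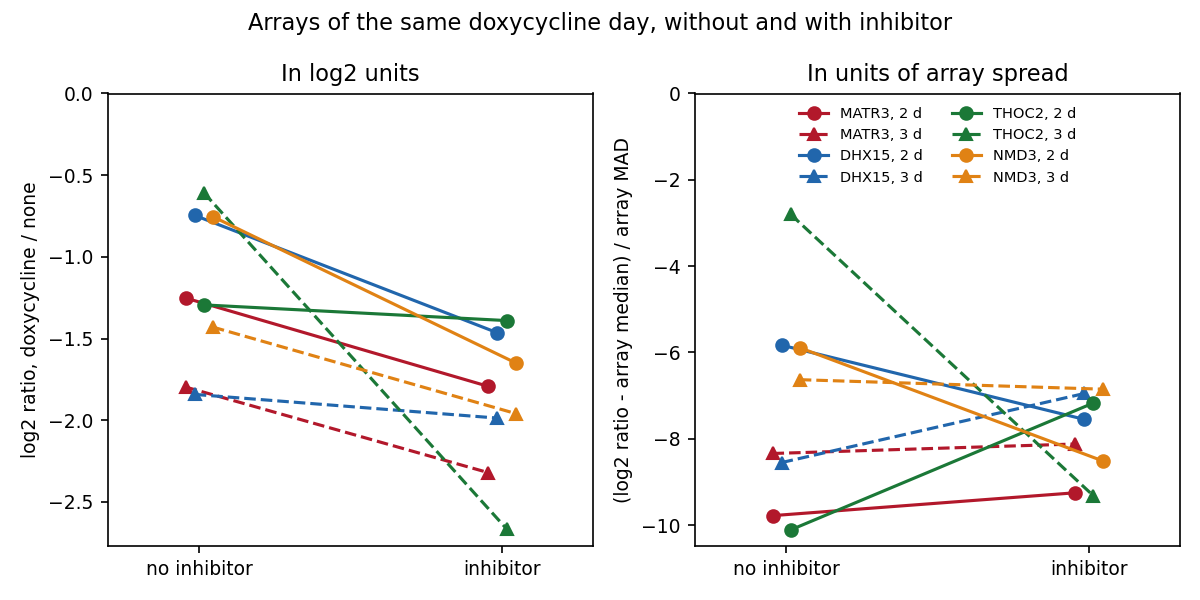
Each gene on the arrays without and with inhibitor of the same doxycycline day, joined by a line (solid, 2 days; dashed, 3 days), in log2 ratio (left) and in multiples of the array's MAD (right). In log2 all lines go down; in MAD units 2 of 4 go down at 2 days and 2 of 4 at 3 days.

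Between 2 and 3 days, MATR3, DHX15 and NMD3 were lower at 3 days with and without inhibitor, as were 43.2% of all genes. So were all of the 24 genes past the fold limit except THOC2, BTN2A2, CLOCK, ABCA5, COPS3 and CHUK. In a limma model with inhibitor group and day (1 residual degree of freedom) DHX15 differed by -0.81 (SE 0.17), MATR3 by -0.54 (SE 0.11) and NMD3 by -0.49 (SE 0.14), each with an adjusted p of 0.208. THOC2 differed by -0.29 (SE 0.44, adjusted p = 0.702), with 0.69 without and -1.28 with inhibitor. None passed, and over all genes 0 of 3589 did (0%; 727 at an unadjusted p under 0.05, 20.3%). On the arrays with inhibitor the day also carries the change from 3 h to 24 h of MLN120b, so these cannot be told apart there. The 3-day arrays were wider too, 1.68 times without and 1.48 times with inhibitor. After scaling to equal spread MATR3 (0.27), THOC2 (0.53) and NMD3 (0.09) turned to the other side of 0, while DHX15 stayed below it (-0.22).

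Other genes of RNA processing and transport were mostly near 0, with a few called lower. The calls here test the mean log2 ratio (doxycycline over none) of the 2 inhibitor arrays against 0; they are no test of the inhibitor, for which no gene was called (above). Of 355 genes on 13 lists, 89 were measured on all 4 arrays, 85 without the 4 described above. On these arrays 5 of the 85 were called below 0 (5.88%) by limma at an adjusted p under 0.05 and none above; over all 3589 genes 164 were called (4.57%), 3.04% lower and 1.53% higher, and 1014 (28.3%) had an unadjusted p under 0.05. Their median was -0.09 without and -0.13 with inhibitor, against -0.03 and -0.01 over all genes. Below 0 on all 4 arrays were 34 of the 85 (40%), against 25.8% of all genes. The lists were chosen with earlier results of these data known, so these shares are a description and no independent test. Without inhibitor limma called none of 3589 genes (0%), with 400 (11.1%) at an unadjusted p under 0.05. The count of 5 became 3 when either array of doxycycline alone was left out, and 16 without the 3 h array.

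Among partners of THOC2, 1 of the other 7 measured genes of THO/TREX and mRNA export was called below 0 on the inhibitor arrays, against 3.04% of all genes. It was THOC1, another THO subunit, which read -0.35 and -0.76 without inhibitor and -0.93 and -1.17 with it (mean -1.05 ± 0.17, SD, n = 2; limma adjusted p = 0.02). THOC6, also of THO, stood at -0.20, FYTTD1, an export adaptor, at -0.56, and NCBP1, which binds the mRNA cap, at 0.02; none of these passed. THOC1 rested on 1 probe, and 1 call among 7 genes is too little to describe these partners as a group.

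Among partners of NMD3, 1 of the other 4 measured genes of ribosomal subunit export and late maturation was called below 0, against 3.04% of all genes. SDAD1, a nucleolar factor needed for export of the large subunit, had -0.69 and -0.99 without and -0.81 and -1.76 with inhibitor (mean -1.28 ± 0.67, SD, n = 2; limma adjusted p = 0.0304). Its call was lost without either array of doxycycline alone (0.0623). XPO1, the export receptor that NMD3 uses, stood at -0.46 without and -0.43 with inhibitor and did not pass. RIOK2 (-0.25) and MDN1 (-0.18), both of ribosome maturation, did not pass. SDAD1 rested on 1 probe, and 1 call among 4 genes is too little to describe the list.

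None of the measured relatives of DHX15 was called. With 4.57% of all genes called, lists this small would hold few calls in any case, so these counts do not set DHX15 apart. Of the 3 other DEAH helicases measured limma called 0: DHX16 stood at -0.48 (limma adjusted p = 0.0777), DHX8 at 0.01 and DHX9 at 0.35 with inhibitor, the first 2 of these also spliceosomal. Neither measured member of the list of DHX15's partners was called, RBM5 (-0.20) and GCFC2 (-0.11). The spliceosome core had 0 of 15 called and a median of 0.00 with inhibitor, its members furthest from 0 being SNRPA (-0.63) and SF1 (-0.37). By limma 0 of 7 genes of the SR protein list, which includes their kinases, were called, with TRA2A at 0.57 and SRPK1 at -0.51.

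The relatives of MATR3 were not called either, against 4.57% of all genes, so lists of this size would hold few calls in any case. Of the 10 other nuclear matrix and paraspeckle genes limma called 0. Their means ranged from -0.27 for the RNA-binding protein gene TAF15, which read -0.68 after 3 h of inhibitor and 0.14 after 24 h, to 0.22 for SCAF4. SFPQ, a splicing factor of paraspeckles, stood at -0.13. Of 11 hnRNP genes, encoding the abundant nuclear RNA-binding proteins, 0 were called by limma, with HNRNPC at -0.39 and HNRNPUL2 at 0.29. PNN, the splicing factor named above, was called at -1.49 ± 0.06 (SD, n = 2; limma adjusted p = 0.0078) as 1 of 3 exon junction and decay genes. It rested on 1 probe, which read -0.54 and -0.88 without and -1.54 and -1.45 with inhibitor.

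RBBP6, of cleavage and polyadenylation, was called at -1.05 ± 0.20 (limma adjusted p = 0.0135; 1 of 4 measured). Its 2 probes disagreed: 1 read -1.63 and -2.23 with inhibitor and the other -0.19 and -0.16. KPNA3, a nuclear import adaptor, was called at -0.87 ± 0.35 (adjusted p = 0.0337; 1 of 7 karyopherin genes), with both probes below 0 on all arrays. Its call was lost without either array of doxycycline alone (0.0643). No member of the exosome (3 measured, EXOSC5 at -0.42 and MTREX at -0.36) or of the nuclear pore (9 measured, NUP50 at -0.44 and NUP214 at -0.43) was called by limma. Over all genes 4.57% were called, so few calls would fall in lists of this size.

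**Figure D5:**
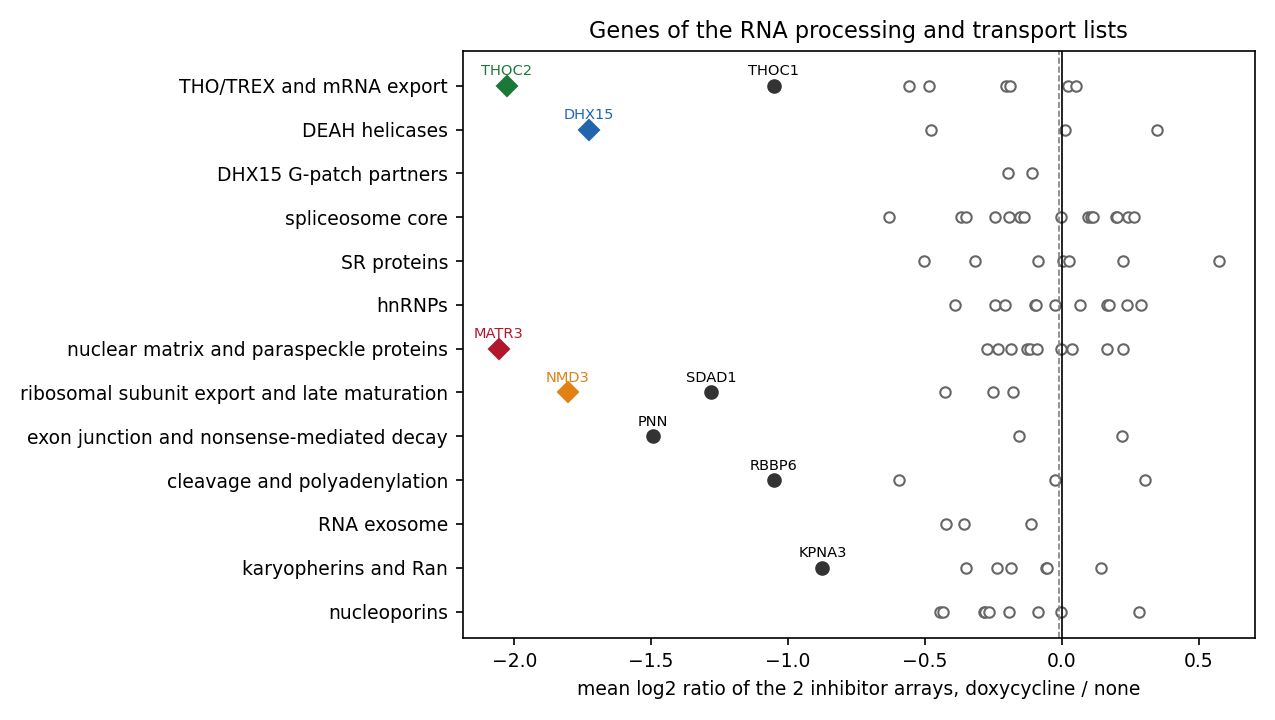
Mean log2 ratio of the 2 inhibitor arrays for each measured gene of 13 RNA lists. Diamonds are the 4 genes that were chosen for low values, filled circles the 5 other genes called by limma and open circles those not called; the dashed line is the median of all genes, -0.01.

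Over the 4 arrays the genes were compared with all others by Euclidean distance of log2 ratios. MATR3 was nearest to CD2AP (0.47), DHX15 (0.69) and NMD3 (0.73). DHX15 was nearest to HSP90B1, an endoplasmic reticulum chaperone (0.35), then to NMD3 (0.45) and SEL1L (0.50), a component of degradation at the endoplasmic reticulum. NMD3 was nearest to SEL1L (0.32), the kinase gene OXSR1 (0.44) and DHX15 (0.45). THOC2 had no close neighbour: USP25, a deubiquitinase, lay at 0.76, WDR44 at 1.07 and SEL1L at 1.12, and it was 1.24 to 1.51 from the other 3 genes. These distances describe 4 arrays and rest largely on how low a gene is. CD2AP, measured by 3 probes, read -1.20, -1.54, -1.58 and -2.01 over the arrays in the order above, which follows MATR3 and, unlike it, holds on each of its probes.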

How the data were processed

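The submitters deposited 1 table of log2 ratios, 1 value per probe and array; per the labels' protocols Cy5 is the doxycycline channel. The base and direction of the ratio, background correction, normalization and what left cells empty were not given in the sources used here. Base 2 was taken because base 10 would make the range of -5.61 to 7.49 implausible. Array medians lay between -0.007 and 0, and 11722 to 14375 probes had a value. Signal over background is unknown; the number of arrays limits precision.

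Probes were named through the platform annotation (10169 with 1 symbol, 4 with several, 5073 with none; 10128 matched RefSeq, GRCh38.p14, by gene ID), and probes with a value on all 4 arrays were averaged per gene. limma 3.58.1 (lmFit, eBayes; R 4.3.3) fitted a mean per inhibitor group over all 3589 genes (2 residual degrees of freedom, prior 4.98) and a model with group and day, with Benjamini-Hochberg adjustment, two-sided. The code was tested on simulated data. The arrays of a group are different days, and nothing says that arrays come from separate cultures, so p-values measure the spread between these arrays.

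The genes and lists were chosen with earlier results of these data known. The text names the 4 genes, CHUK, the 3 genes nearest to each and genes beside the limit. From the lists it names all genes called with inhibitor or otherwise the 2 furthest from 0. Other partners, and other genes past the limit, were named after their values were seen. Alternatives were centring, scaling, probes with empty cells, single probes, a block for the day, arrays left out singly, a robust prior, an adjusted p under 0.10 and a 2-fold limit.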

Additional observations from a re-analysis of the deposited data

How the results depend on the processing

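Of the values of the 4 genes under the alternatives, 8 changed sign, 3 moved further and 3 came to pass. The other 138 kept their side of 0 and of the threshold, or moved by less than the spread between a group's arrays. Part of the 138 was fixed in advance: each gene has 1 complete probe, so single probes repeat the main value. Likewise a group mean stays the same when an array of the other group is left out or the day enters as a block. Scaling to equal spread turned the MATR3 difference with inhibitor to 0.077 and its day difference to 0.27, and the day differences of THOC2 to 0.53 and of NMD3 to 0.094, and moved NMD3 with inhibitor to -1.58. Admitting probes with empty cells turned the MATR3 day difference to 0.40. There the 3 h array holds the low MATR3 probe alone (-1.79), while the other arrays average it with the second probe. Leaving out arrays took the DHX15 difference with inhibitor from -0.98 to 0.12 and the THOC2 day difference from -1.28 to 0.69.

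Genes called without inhibitor (0) became 140 after scaling, 70 as single probes, 56 with the day as a block, 6 at an adjusted p under 0.10 and 0 to 231 with an array left out. With inhibitor the 164 became 794 as single probes, 908 with the day as a block, 590 at the looser threshold and 34 to 858 with an array left out. For the difference with inhibitor the 0 became 4 with probes with empty cells and 0 to 119 with an array left out. For the day the 0 became 12 after scaling, 5 with empty cells and 5 as single probes; with an array left out no residual degree of freedom remains, so it has no test. The 5 RNA list genes called below 0 became 16 as single probes, 19 with the day as a block, 12 at the looser threshold and 3 to 16 with an array left out. The 24 genes past the fold limit became 58 as single probes, 2 at 2-fold and 24 to 52 with an array left out. The cause of these changes was not tested. Signal over background, which sets how far low ratios can be trusted, is unknown here.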

Other observations

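Several relatives of the 4 genes lacked a value on 1 or more arrays and entered no test: 26 of the 115 RNA list genes on the array. ALYREF, the adaptor through which TREX binds mRNA, had 2 such probes, at 0.09, 0.07 and 0.32 on the 1, without the 3 h array, and at -0.06, -0.16 and -0.14 on the other, without the 24 h array. EIF6, which keeps the large ribosomal subunit from joining the small one, read 0.29 on the 2-day array of doxycycline alone, and -0.14 and -0.22 on the inhibitor arrays. HNRNPH3 read -0.19 on the same 2-day array, then 0.80 and 0.75 on the inhibitor arrays. The DEAH helicases DHX36 (0.40) and DHX57 (-0.04) had a value at 2 days without inhibitor alone.

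Probes with no gene name were also low throughout. Of 81 complete probes past 1.5-fold below 0 on all 4 arrays, 58 carried a symbol, and the rest are unnamed here.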
